A study of Homo sapiens with 2 samples.

Results

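The S phase control cells were 210 of the 956 uninduced control cells in a single-cell RNA sequencing study of 1622 cells, chosen by the RNA levels of 6 genes that serve DNA replication and repair. In each control cell the counts of CDC6, EXO1, BLM, PCNA, FAM111B and ESCO2 were scaled to a total of 1000000 (CPM) and summed, and the cells in the top 25% of that sum, past 426 CPM, were taken. Of the 239 cells taken, 29 were left out because they were also in the top 25% of control cells, past 682 CPM, for the summed CPM of 9 mitotic genes (AURKA, CENPE, NEK2, DLGAP5, HMMR, ASPM, TTK, KIF20A and KIF14). The resulting share, 22.0% of control cells, was set by this rule and does not measure how many cells were in S phase. The other 746 control cells were made up of 210 past the mitotic cut-off only (mitotic cells), the 29 past both cut-offs and 507 past neither.

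All cells were of SK-N-BE(2)-C, an established human neuroblastoma line, carrying a construct from which doxycycline switches on HRASV12, a constantly active mutant of the GTPase HRAS. The uninduced control library was made from cells kept without doxycycline, also with a time of 13 days. The HRASV12 induced library was made from cells that received 100 ng/ml of doxycycline for 13 days. The control cells carried the same construct, and nothing in the labels describes more than 1 engineered line. Each group was a single library, so nothing could be set against a replicate and nothing was tested: every difference describes these cells. The 95% intervals of levels and ratios cover counting error only. Those of shares treat cells as independent draws from 1 library, and those of list medians describe the spread among genes of a list. None covers a difference between replicate cultures.

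The 210 S phase cells had 29099 to 210507 counts each, with a median of 76365, against a median of 92424.5 in the other control cells. Their median number of genes per cell was 9549 against 9813, their median mitochondrial percent 13.3 against 13.2, and their median level of MALAT1, a nuclear noncoding RNA, 3319 against 3043 CPM. Across the 956 control cells the S phase sum and the counts per cell had a Spearman rho of 0.13, and within the 210 members of -0.24, both of which share depth and scaling and are given as descriptions. The 2 libraries shared 0 barcodes, and the deposited annotation marks every cell as a singlet.

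In S phase a cell copies its genome once. Origins loaded with the MCM helicase in G1 are fired when cyclin E and CDK2 become active, and E2F transcription factors, freed from the retinoblastoma protein, raise transcription of cyclin E itself, of the replication machinery and of the enzymes that make deoxynucleotides. New DNA is wrapped on newly made histones, so histone mRNA peaks in S phase, while transcripts of mitosis accumulate later, in G2 and M phase. SK-N-BE(2)-C carries many extra copies of MYCN, a transcription factor gene that drives proliferation in neuroblastoma.

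The S phase sum of the members ran from 426 to 1072 CPM with a median of 622 CPM, while its median was 246 CPM in mitotic cells and 130 CPM in cells past neither cut-off. These values chose the cells and support nothing. The cut-off fell in a continuous range: the 10 members nearest to it had sums of 426 to 447 CPM, and the 10 cells nearest below it had 414 to 424 CPM. Within 10% of the cut-off there were 22 members above and 35 non-members below that were also under the mitotic cut-off. The group is thus a range of a score rather than a separate cluster, as the plot of both sums shows.

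**Figure D1:**
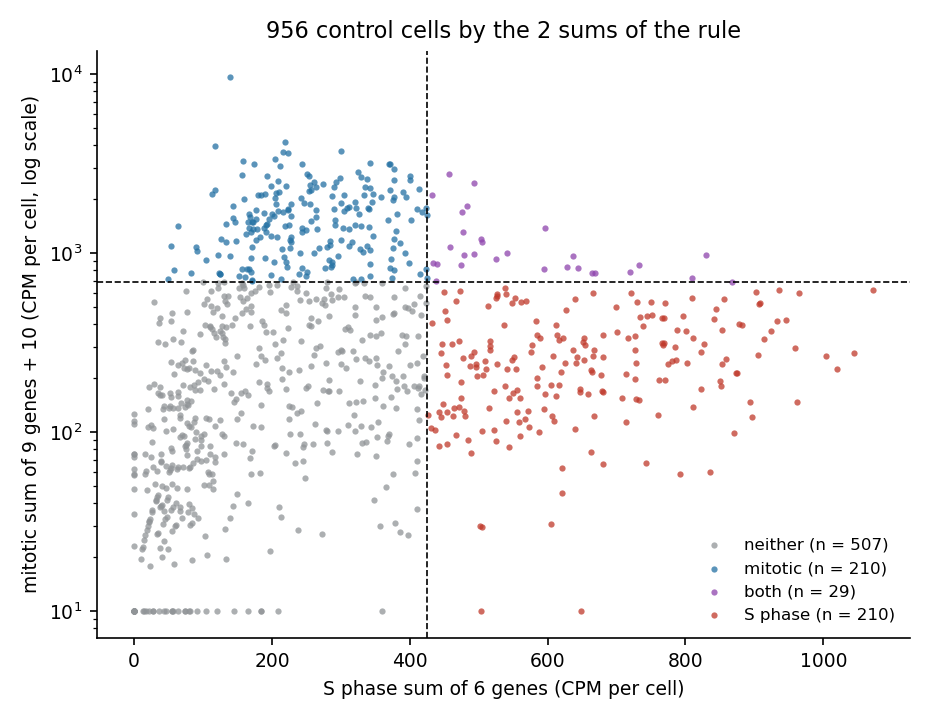
Each point is a control cell, placed by its S phase sum of 6 genes (horizontal, CPM) and its mitotic sum of 9 genes (vertical, CPM plus 10, log scale), with dashed lines at the cut-offs of 426 and 682 CPM. The 210 S phase cells (red) lie right of one line and under the other, with no gap between them and the 507 cells past neither cut-off (grey).

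Of the 5 markers given for these cells, PCNA, CDC6, EXO1 and ESCO2 belong to the S phase sum, so their levels in the members were fixed by the rule. PCNA (ENSG00000132646.11), the sliding clamp that holds polymerases on DNA, stood at 279 CPM over the pooled S phase cells and 97.1 CPM over the pooled other control cells. In a slightly different set of cells, chosen by the remaining 5 genes, PCNA was 2.50-fold higher than in the rest (exact interval 2.41 to 2.59), and 90.5% of those cells were members. Left out in the same way, the licensing factor CDC6 was 2.77-fold higher (2.61 to 2.95), the exonuclease EXO1 2.44-fold (2.24 to 2.65), the cohesin acetyltransferase ESCO2 2.23-fold (2.10 to 2.36), the helicase BLM 2.64-fold (2.45 to 2.85) and the protease FAM111B 3.41-fold (3.07 to 3.79). Only the fifth marker, the histone gene HIST1H4C, took no part in the rule, but it was read in the same cells and is no independent check. It stood at 1930 CPM in members and 1266 CPM in the others, a log2 ratio of 0.61. On the alternative scalings by TMM and DESeq2 its log2 ratio was 0.52 and 0.53, under 1.5-fold. Its level in the cells past both cut-offs was above that of the members.

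Phases were also called from 39 S phase and 48 G2 and M phase genes with the 15 genes of the rule removed, after thinning every cell to 53000 counts, which left out 34 members and 156 other control cells. Of the 176 members that remained, 59.7% were called S phase (Clopper-Pearson interval 52.0 to 67.0%) and 40.3% G2 or M phase, and 0 were called G1, where the limit of 3 cells that a count of 0 allows is a share of 1.70%. Of 590 other control cells, 7.29% were called S phase (5.32 to 9.69%), 72.4% G2 or M phase and 20.3% G1. Without thinning, 76.7% of the 210 members and 11.5% of the others were called S phase. Of all thinned control cells called S phase, 70.9% were members, so the rule and the phase call overlapped without being the same.

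Of the listed markers of other cell types, EGFL7, LUM and PDGFRB alone reached 10 CPM. Of 7 endothelial markers only EGFL7 reached 10 CPM, at 94.5 CPM in members and 96.9 CPM in the others, and KDR had no count in members. The summed endothelial list was at 100.1 against 106 CPM. Of 6 fibroblast genes LUM and PDGFRB reached 10 CPM, and the sum was 32.6 against 42.5 CPM. No gene of 4 immune, 4 Schwann cell precursor or 5 erythroid markers reached 10 CPM in either pool: the sums in members were 4.86, 9.77 and 0.218 CPM, and AIF1, HBB and HBA1 were among those with no count there, where 0 counts allow up to 0.164 CPM.

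Pooled over cells, 8807 genes outside the rule had at least 10 CPM in the S phase cells or in the other control cells, and these are called measured. Some genes called higher below passed this floor only through the S phase cells. Log2 ratios were taken of CPM plus 1, so low genes show less than their full difference. A ratio of at least 1.5-fold was used to call a gene higher or lower. In the S phase cells 269 genes (3.05%) were higher and 97 (1.10%) lower, and the median log2 ratio of all measured genes was 0.04. At 2-fold, 43 genes (0.488%) were higher and 19 (0.216%) lower. Higher genes made up 73.5% of those called. That share depended on scaling, as it was 55.8% with TMM (189 higher, 150 lower), 58.8% when scaled by DESeq2 (201 and 141) and 62.6% after removing ribosomal protein and mitochondrial genes from the totals (263 and 157). TMM and DESeq2 moved all log2 ratios by -0.09 and -0.08. Since the same cells gave the rule and these levels, genes that vary with the 6 chosen ones had to differ, and the counts are descriptions.

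The genes that decide entry into S phase spread widely. CCNE1 (cyclin E1), an activator of CDK2, stood at 27.1 CPM in S phase cells, 9.91 CPM in cells past neither cut-off, 3.35 CPM in mitotic cells and 10.1 CPM in the 29 cells past both. Its level was highest in the members and lowest in mitotic cells, and the ratio to all other control cells was 3.37 (exact interval 2.99 to 3.80). Per cell, CCNE1 had a median of 19.0 CPM in members and 0 CPM in the others, and 77.1% of members lay above the median of the others. CCNE2 (cyclin E2) was at 12.7 against 2.87 CPM, a log2 ratio of 1.82. E2F1, an activating E2F factor, stood at 126 against 64.5 CPM (log2 ratio 0.96), and the repressive members E2F7 and E2F8 had log2 ratios of 1.39 and 1.27. CDC25A, the phosphatase that activates CDK2, was at 34.2 against 16.8 CPM. Of 27 measured regulators of this transition 10 were higher and 1 was lower, with a median log2 ratio of 0.29. The lower gene was CDKN1A (p21), an inhibitor of these kinases, at 12.8 against 23.0 CPM (log2 ratio -0.79). Cyclin D1 (CCND1, -0.16), CDK4 (0.44), CDK6 (0.03) and RB1 (0.21) did not pass 1.5-fold.

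Origin licensing genes differed between the helicase and the complex that recruits it. MCM5 was at 109 against 48.6 CPM and MCM6 at 71.2 against 31.7 CPM, and the log2 ratios of MCM3, MCM4, MCM5, MCM6 and MCM7 lay between 0.97 and 1.15. MCM2 had only 8.52 against 4.06 CPM, under the 10 CPM floor. Whether reads of MCM2 were lost in the authors' counting was not tested, so its level is uncertain. CDT1, which loads MCM with CDC6, had a log2 ratio of 1.13, and GMNN (geminin), its inhibitor, one of 0.79. Of the origin recognition complex, ORC1 (0.98) and ORC6 (0.84) were higher, while ORC2, ORC3, ORC4 and ORC5 had log2 ratios of 0.16 to 0.36. In all, 10 of 14 measured licensing genes outside the rule were higher and 0 lower (median 0.91). ORC1, counted among them, reached 10 CPM only through the members.

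At the fork, 10 of 15 firing and fork genes were higher and 0 lower (median log2 ratio 0.85). MCM10, which helps the helicase to open DNA, stood at 84.8 CPM in S phase cells, 34.1 CPM in mitotic cells and 27.4 CPM in cells past neither cut-off, and 98.6% of members lay above the median of the other control cells. CLSPN (claspin, a checkpoint mediator) had a log2 ratio of 1.21, CDC45, a helicase cofactor, one of 1.18 and GINS2 one of 0.92. The kinase subunits CDC7 (0.45) and DBF4 (0.11) and the fork protection gene TIMELESS (0.18) did not reach 1.5-fold, whereas its partner TIPIN did (1.08).

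Of 11 polymerase and primase genes 7 were higher and 0 lower (median 0.74). POLD3 was at 56.8 against 23.3 CPM and PRIM1, the catalytic primase subunit, at 41.3 against 19.7 CPM. POLE (0.66), the catalytic subunit of the leading strand polymerase, was also higher. The accessory subunits POLD2 (-0.04) and POLE4 (-0.11) were near equal in both pools, unlike POLD3, an accessory subunit too.

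Of 15 measured clamp and Okazaki fragment genes outside the rule 9 were higher and 0 lower (median 0.88). FEN1, the nuclease that trims Okazaki fragments, was at 139 CPM in S phase cells, 64.1 CPM in mitotic cells and 50.5 CPM in cells past neither cut-off. Its median per cell was 139 CPM in members, with quartiles of 105 and 174 CPM, against 47.0 CPM in the others, with quartiles of 23.2 and 79.0 CPM, so the central ranges of the groups did not overlap. The clamp loader genes RFC2 to RFC5 had log2 ratios of 0.82 to 1.04, but RFC1, its large subunit, had 0.29. The ligase LIG1 reached 0.56. Over the 4 groups joined, 36 of 55 measured DNA replication genes were higher and 0 lower, with a median of 0.84 (order-statistic interval 0.62 to 0.92) against 0.04 for all measured genes.

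**Figure D2:**
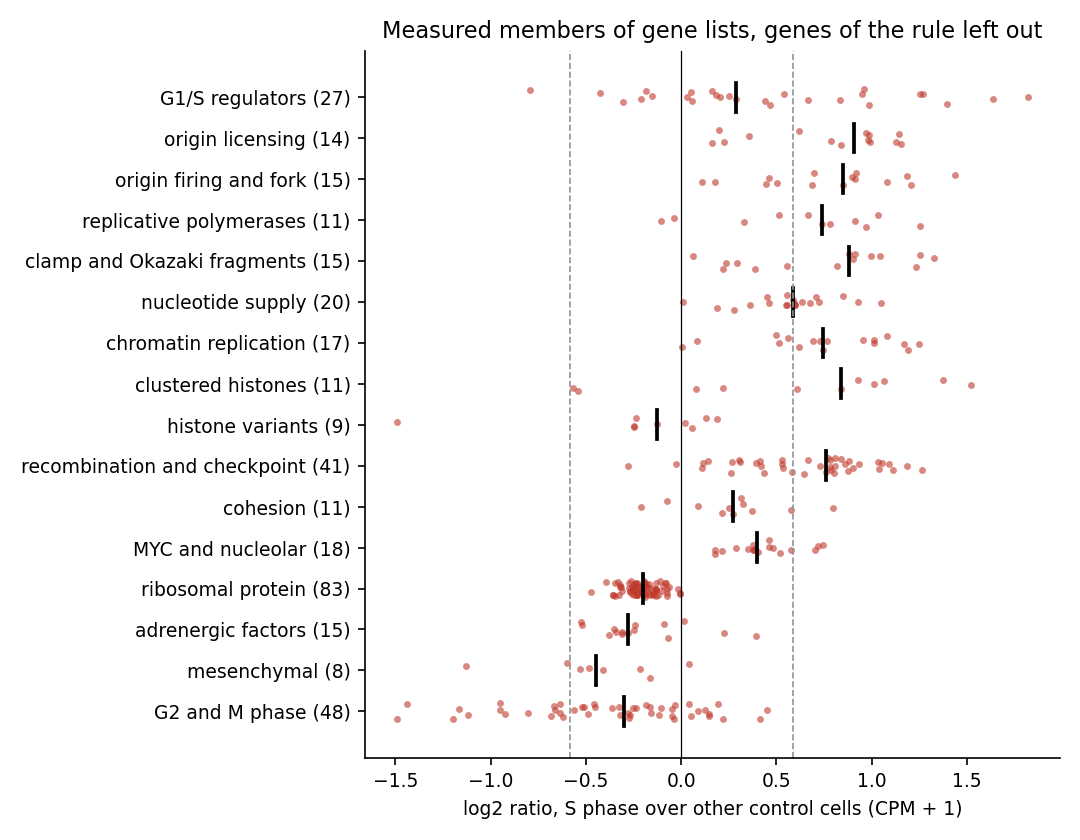
Each point is a measured gene of the named list, outside the rule, at its log2 ratio of S phase over other control cells (CPM plus 1); bars are list medians, numbers in brackets count genes, and dashed lines mark 1.5-fold. Replication lists centre at 0.74 to 0.91, ribosomal protein genes at -0.20 and G2 and M phase genes at -0.30.

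Genes for nucleotide supply were higher by less. RRM2, the S phase subunit of ribonucleotide reductase, stood at 279 CPM in S phase cells, 191 CPM in mitotic cells and 97.6 CPM in cells past neither cut-off. Its partner RRM1 was at 111 against 75.4 CPM in the other control cells and did not reach 1.5-fold (0.56). The thymidine kinase TK1 had a log2 ratio of 0.93 and DCTPP1, a nucleotide pyrophosphatase, one of 0.85. Purine synthesis genes GART and ATIC were both at 0.60. Of 20 measured genes 11 were higher and 0 lower, with a median of 0.59 close to the 1.5-fold limit. TYMS, for thymidylate synthase, was at 10.5 against 6.63 CPM, so it was measured, and counted as higher, only through the members. Its log2 ratio of 0.59 was 0.54 without the member cell with most of its counts. As for MCM2, whether reads of TYMS were lost in counting was not tested.

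Chromatin assembly genes were higher together with replication genes: 12 of 17 were higher and 0 lower (median 0.75). SLBP, the protein that binds the stem-loop of histone mRNA, was at 212 CPM in S phase cells against 84.4 CPM in mitotic cells and 88.3 CPM in cells past neither cut-off. UHRF1, which guides maintenance DNA methylation, had a log2 ratio of 1.19, the histone chaperone ASF1B one of 1.17 and CHAF1A one of 0.95. DNMT1 (0.56) and the paralog ASF1A (0.00) did not pass 1.5-fold.

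Histone genes themselves split by kind. Of 68 clustered histone genes only 11 were measured, and 7 of these were higher and 0 lower (median 0.84, order-statistic interval -0.54 to 1.38). The linker histones HIST1H1D (87.3 against 29.7 CPM) and HIST1H1B (91.3 against 34.6 CPM) had the highest log2 ratios of the measured ones, 1.52 and 1.38. HIST1H2AC and HIST3H2A had log2 ratios of -0.54 and -0.57. Histone variants, which are made outside S phase as well, had a median of -0.13, with H2AFZ at 0.05 and the centromeric CENPA at -1.49. Most clustered histone mRNA carries no poly(A) tail, so poly(A) capture sees a part of it, and near-identical copies can lose or share counts, which makes single histone levels uncertain. HIST1H4C varied widely among members: its quartiles per cell were 721 and 2659 CPM around a median of 1675 CPM, against 189 and 1562 CPM around 353 CPM in the others.

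Repair and checkpoint genes followed the replication genes, with 24 of 41 higher and 0 lower (median 0.76). BRCA1, a recombination gene, stood at 81.8 against 39.3 CPM, and the mismatch repair gene MSH6 had a log2 ratio of 1.05. UNG, which removes uracil from DNA, was at 52.9 CPM in members, 20.8 CPM in the cells past both cut-offs and 17.7 CPM in mitotic cells. ATM (0.11), ATR (0.42) and PMS2 (-0.03) did not pass 1.5-fold. Of 11 measured cohesion genes outside the rule only CDCA5 (sororin) was higher, at 0.80, with a list median of 0.27. DTL, the substrate receptor of the CRL4 ubiquitin ligase that clears CDT1 in S phase, had a log2 ratio of 1.28, whereas its scaffold partners DDB1 and CUL4A had -0.01 and 0.03.

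The genes with the lowest ratios were of several kinds. Of the 12 lowest with at least 25 CPM, 7 are genes of G2 and mitosis: PLK1 (log2 ratio -1.74), CCNB1 (-1.50), CENPA (-1.49), PSRC1 (-1.44), CCNB2 (-1.20), DEPDC1 (-1.17) and CDC20 (-1.16). PIF1, a DNA helicase, was at -1.22 against all other control cells and at -2.16 against mitotic cells. Because the rule removed cells high in mitotic genes, these ratios were fixed in part by the choice of cells. Against cells past neither cut-off, PLK1 was at -0.41 and CCNB1 at -0.22, and CDC20 and DEPDC1 turned to 0.16 and 0.09. The remaining 4 were KDM5B, UBALD2, VIM and CRH.

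KDM5B (ENSG00000117139.17), a histone demethylase acting on lysine residues of histone H3, stood at 24.2 CPM in S phase cells, 64.7 CPM in cells past neither cut-off, 66.0 CPM in mitotic cells and 41.4 CPM in cells past both cut-offs. The members had the lowest level, and cells past neither cut-off and mitotic cells had nearly the same level as each other. Only 8.10% of members lay above the median of the other control cells, and the log2 ratio was -1.37. UBALD2 was at 13.0, 27.3, 50.3 and 44.5 CPM in the same order of groups, again lowest in the members. SESN3, a stress-inducible sestrin, was at 25.1 CPM in members, 49.5 CPM in cells past neither cut-off and 51.8 CPM in mitotic cells. Of 8 measured quiescence and antiproliferative genes 2 were lower, SESN3 and CDKN1A, and 0 higher.

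CRH, the corticotropin-releasing hormone, was at 97.8 against 224 CPM, but 53.5% of its counts in members came from 1 cell, and its log2 ratio of -1.19 was -2.28 without that cell. CARTPT, a neuropeptide gene, was among the 12 highest genes at 98.6 against 33.0 CPM, and 95.7% of its counts in members came from 1 cell. Without that cell the log2 ratio of 1.55 was -2.70, and with all cells at 100 CPM or more of CARTPT left out on both sides it was 0.30 (4.22 against 3.24 CPM), so its sign depended on which cells were left out. At 100 CPM or more of CARTPT there was 1 of 210 members (0.476%, Clopper-Pearson interval 0.0121 to 2.62%) and 29 of 746 other control cells (3.89%, 2.62 to 5.54%). Of the 269 higher genes 14 were under 1.5-fold without the member cell with most of their counts.

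The comparison depends on which control cells the members are set against, so it was split. Against the 507 cells past neither cut-off, 503 of 8810 genes (5.71%) were higher and 89 (1.01%) lower, and the median of DNA replication genes was 1.04 with 41 of 55 higher. The G2 and M phase list turned with this choice. Its median was -0.30 against all other control cells (0 of 48 higher, 15 lower), 0.42 against cells past neither cut-off (18 of 47 higher, 0 lower) and -1.27 against mitotic cells (0 of 48 higher, 42 lower). CDK1, the mitotic kinase that is already made in S phase, stood at 59.1 CPM in cells past neither cut-off, 160 CPM in S phase cells and 233 CPM in mitotic cells. MKI67 (94.0, 165 and 382 CPM) and the topoisomerase TOP2A (145, 217 and 658 CPM) lay in the same order.

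Against the 210 mitotic cells, 247 of 8883 genes (2.78%) were higher in S phase cells and 285 (3.21%) lower. DNA replication genes still had a median of 0.50 with 23 of 55 higher and 0 lower. The G1/S boundary list, genes known to peak as cells enter S phase (CCNE1, CCNE2, UNG, SLBP, CDC25A, E2F1 and the MCM genes), had near the same median in all 3 comparisons: 1.15 against all others, 1.16 against cells past neither cut-off and 1.17 against mitotic cells, with 10 of 10 measured genes higher in each. These 3 comparisons share the member cells. Over all control cells the sum of this list had a Spearman rho of 0.84 with the S phase sum that chose the members. Genes that vary with that sum had to be higher, so these counts are descriptions. In all 3 comparisons CCNE1 reached the floor of 10 CPM only through the members. Against all other control cells CCNE2 did so too.

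**Figure D3:**
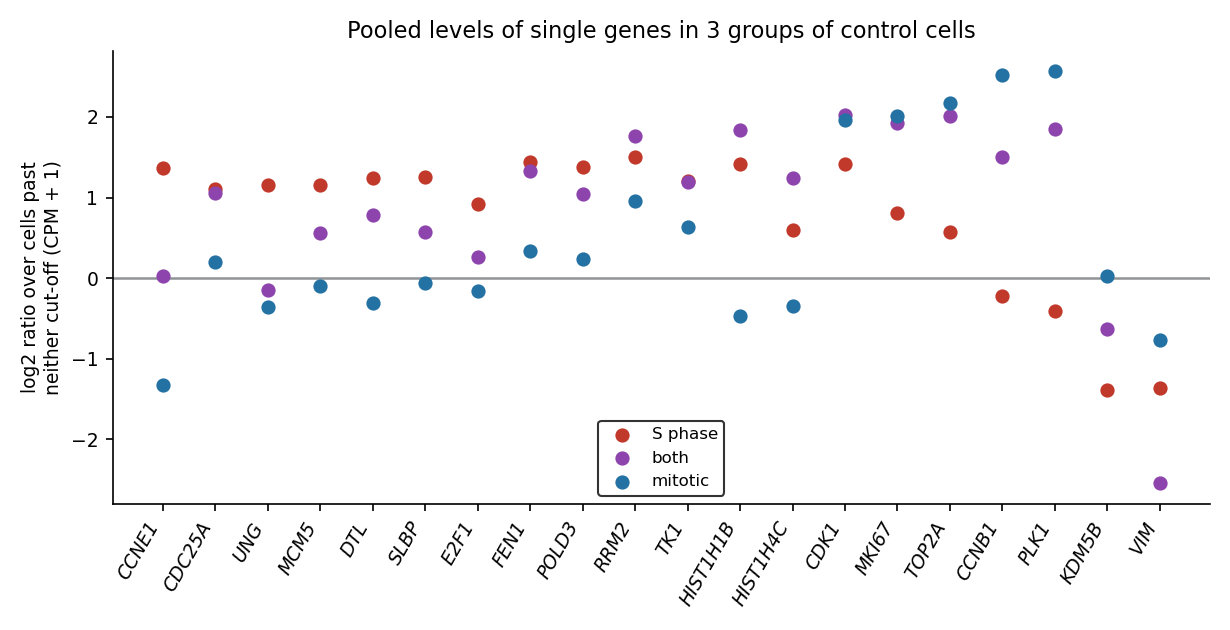
Pooled log2 ratio of each gene over cells past neither cut-off (CPM plus 1, zero line) for S phase cells (red), cells past both cut-offs (purple) and mitotic cells (blue). CCNE1 is at 1.36 in S phase and lowest in mitotic cells, RRM2 and CDK1 are raised in all 3 groups, and KDM5B is at -1.38 in S phase cells.

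The 29 cells past both cut-offs differed from the members in the order of these genes. UNG and CCNE1 were at 20.8 and 10.1 CPM there, near the 23.1 and 9.91 CPM of cells past neither cut-off, while RRM2 reached 333 CPM and HIST1H4C 3006 CPM, above the members. The median per cell of the G1/S boundary sum was 1192 CPM in members, 825 CPM in cells past both cut-offs, 532 CPM in mitotic cells and 465 CPM in cells past neither. The clustered histone sum had its highest median in the cells past both cut-offs, 3128 CPM, against 2307 CPM in members, 653 CPM in mitotic cells and 672 CPM in cells past neither.

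**Figure D4:**
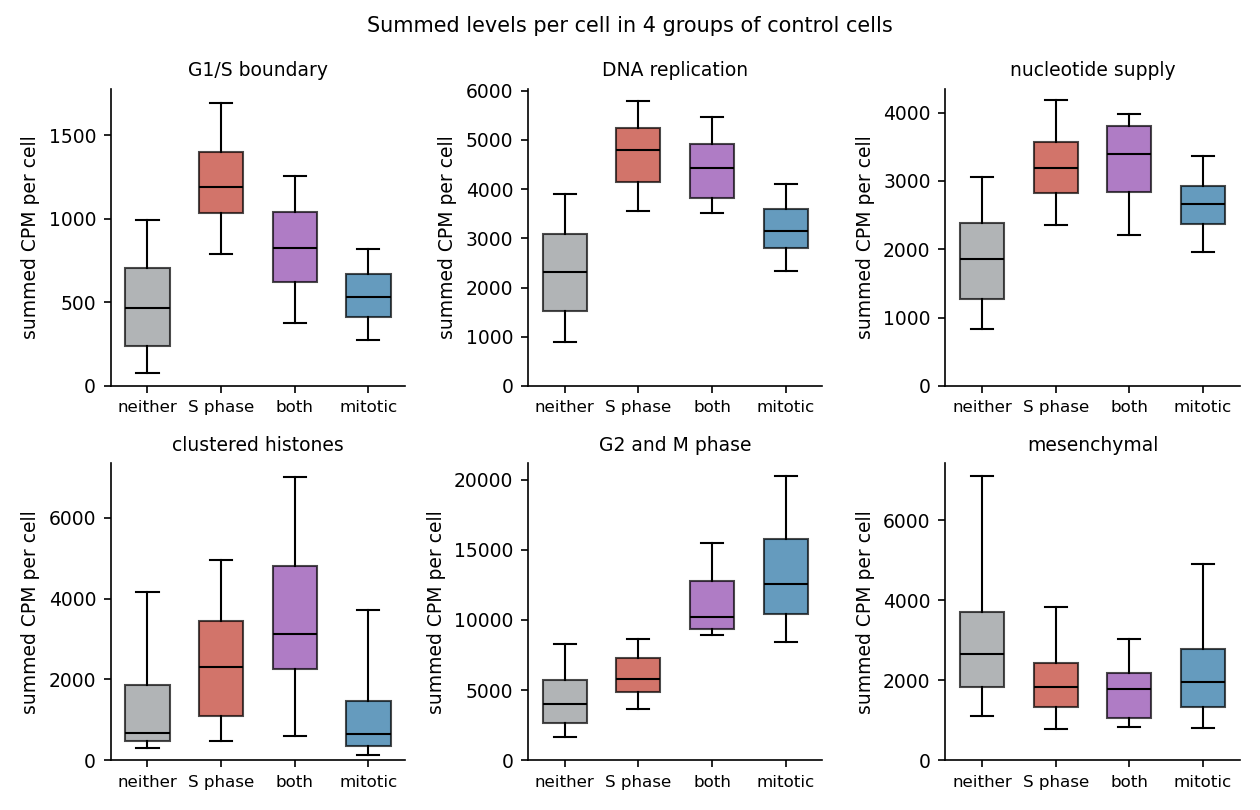
Summed CPM per cell of 6 gene lists in 507 cells past neither cut-off, 210 S phase cells, 29 cells past both and 210 mitotic cells; boxes give the quartiles with the median, and whiskers the 5th and 95th percentiles. The boundary sum is highest in S phase cells (median 1192 CPM) and the histone sum in cells past both cut-offs (median 3128 CPM).

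Members also differed among themselves. They were split at their median boundary sum of 1192 CPM into 105 cells above it and 105 below, which had median counts per cell of 68737 and 85981. Of 8797 genes outside this list and the rule, 26 (0.296%) were at least 1.5-fold higher in the upper cells and 53 (0.602%) lower, with a median log2 ratio of 0.02. UHRF1 was among the higher, at 113 against 68.3 CPM. Of 51 DNA replication genes 1 was higher, ORC1 (log2 ratio 0.64), and 0 lower, with a median of 0.20. CDC6, a gene of the rule, was at 120 against 85.0 CPM. RRM2 was near equal, at 290 against 269 CPM. HIST1H4C was at 1663 CPM in the upper and 2147 CPM in the lower cells, a log2 ratio of -0.37 that does not reach 1.5-fold. Of 12 measured clustered histone genes 1 was lower, HIST1H2AC (-0.81), and 0 higher, with a median of -0.20 and HIST1H1D at 0.07. In 176 members thinned to 53000 counts, the boundary and histone sums had a Spearman rho of -0.28. Over all 766 thinned control cells the S phase sum had a rho of 0.80 with the boundary sum, 0.89 with the sum of replication genes outside the rule and 0.47 with the histone sum. The points share library and depth, and these values are descriptions.

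By list median, genes of cell identity differed less than DNA replication genes (0.84). The mesenchymal list had a lower median (-0.45, order-statistic interval -1.13 to 0.04, 8 genes) than the G2 and M phase list (-0.30, -0.52 to -0.16, 48 genes). These intervals overlap. MYCN, the amplified driver of this line, stood at 544 CPM in S phase cells, 505 CPM in cells past neither cut-off and 391 CPM in mitotic cells. HRAS was at 116 against 108 CPM in the other control cells. Of 15 measured adrenergic transcription factors 0 passed 1.5-fold, with a median of -0.28 and PHOX2A, GATA3 and HAND2 at -0.35, -0.38 and -0.31. Chromaffin (12 genes, median 0.01) and neuronal genes (13 genes, median -0.03) also had 0 past 1.5-fold. Of all measured genes 3.05% were higher and 1.10% lower, so counts of 0 in lists this short say little about them. STMN2, a neuronal microtubule regulator, was at 780 against 1031 CPM.

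Mesenchymal genes were the identity list with the lowest median, -0.45, with 2 of 8 measured lower and 0 higher. VIM (vimentin, an intermediate filament) was at 92.6 CPM in S phase cells, 241 CPM in cells past neither cut-off and 141 CPM in mitotic cells. The cells overlapped widely: per cell, VIM had a median of 16.2 CPM in members, with quartiles of 0 and 97.2 CPM, and of 26.2 CPM in the others, with quartiles of 0 and 126 CPM. Among the members VIM stood at 45.7 CPM in the 105 cells with more of the boundary list and 131 CPM in the 105 with less. LGALS1 (galectin-1) was the other lower gene, at 454 against 690 CPM.

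Promoter sequences from RefSeq (GRCh38.p14) were searched for motifs of cell cycle control in the 250 bases before and 50 after each start, on both strands. An E2F motif was counted as TTTGGCGC, TTTCGCGC, TTTGCCGC or TTTCCCGC. It was present for 46 of 217 higher genes with an entry (21.2%), 18 of 47 DNA replication genes (38.3%) and 3 of 82 lower genes (3.66%), against 422 of 7141 measured genes (5.91%) and 908 of 27305 promoters in the table (3.33%). The CHR motif of G2 and M phase genes, TTTGAA, was present for 29 of 41 G2 and M phase genes (70.7%) and 20 of 82 lower genes (24.4%), against 20 of 217 higher genes (9.22%), 9.38% of measured genes and 15.4% of all promoters. The CCAAT box, CCAAT, was present for 10 of 10 measured clustered histone genes with an entry, 48.8% of higher genes and 46.3% of lower genes, against 38.3% of measured genes and 35.7% of all promoters. Matches of different motifs were counted apart and could overlap. A match describes letters in this window and does not show that a factor binds.

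The 5 E2F promoters shown are of a gene of the rule and 4 higher genes of the G1/S transition, licensing control and chromatin, and PLK1 is shown as the gene with the lowest ratio. Each sequence is the 250 bases before the start, 5′ to 3′ on the gene's strand, with capitals for E2F matches, or for the CHR and CCAAT matches in PLK1. They lie at chr20:5126623-5126872 (minus strand, PCNA), chr3:48188418-48188667 (minus, CDC25A), chr1:212035498-212035747 (plus, DTL), chr20:33686386-33686635 (minus, E2F1), chr19:4909251-4909500 (plus, UHRF1) and chr16:23678639-23678888 (plus, PLK1).
PCNA: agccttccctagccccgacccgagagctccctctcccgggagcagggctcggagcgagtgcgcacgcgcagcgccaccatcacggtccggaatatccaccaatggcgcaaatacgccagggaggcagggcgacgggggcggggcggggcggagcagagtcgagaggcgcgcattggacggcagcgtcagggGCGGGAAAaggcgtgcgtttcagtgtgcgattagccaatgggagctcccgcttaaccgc
CDC25A: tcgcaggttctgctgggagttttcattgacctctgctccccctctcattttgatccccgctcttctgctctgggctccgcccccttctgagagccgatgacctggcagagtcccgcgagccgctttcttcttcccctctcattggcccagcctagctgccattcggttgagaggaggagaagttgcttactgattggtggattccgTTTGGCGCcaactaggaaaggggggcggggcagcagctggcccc
DTL: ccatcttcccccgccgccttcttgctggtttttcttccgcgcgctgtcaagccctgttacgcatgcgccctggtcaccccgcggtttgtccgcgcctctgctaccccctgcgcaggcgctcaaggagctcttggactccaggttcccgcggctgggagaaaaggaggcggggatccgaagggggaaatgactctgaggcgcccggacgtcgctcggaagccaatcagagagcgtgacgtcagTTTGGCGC
E2F1: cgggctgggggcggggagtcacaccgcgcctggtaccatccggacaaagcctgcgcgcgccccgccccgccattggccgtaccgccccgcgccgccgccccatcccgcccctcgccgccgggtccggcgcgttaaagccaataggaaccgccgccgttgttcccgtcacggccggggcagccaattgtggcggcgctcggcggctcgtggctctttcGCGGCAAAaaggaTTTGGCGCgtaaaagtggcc
UHRF1: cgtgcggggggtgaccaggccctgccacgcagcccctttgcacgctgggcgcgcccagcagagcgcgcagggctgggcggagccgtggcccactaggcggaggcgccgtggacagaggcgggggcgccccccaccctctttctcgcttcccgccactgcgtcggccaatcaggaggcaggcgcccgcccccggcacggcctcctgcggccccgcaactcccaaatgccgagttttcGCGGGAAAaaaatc
PLK1: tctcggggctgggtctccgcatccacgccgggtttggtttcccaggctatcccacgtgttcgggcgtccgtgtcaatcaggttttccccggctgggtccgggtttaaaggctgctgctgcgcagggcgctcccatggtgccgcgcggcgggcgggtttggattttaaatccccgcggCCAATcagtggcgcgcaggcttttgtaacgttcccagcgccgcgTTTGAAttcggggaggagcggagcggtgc
The E2F match began 59 bases before the start in PCNA, 44 in CDC25A, 8 in DTL, 14 in UHRF1, and 33 and 20 in E2F1, which has a pair of them. The pooled log2 ratios of these genes were 1.51 for PCNA, 0.98 for CDC25A, 1.28 for DTL, 0.96 for E2F1 and 1.19 for UHRF1, and that of PLK1 was -1.74. CCNE1, MCM10, CDC45, SLBP and RRM2 were higher as well and had none of the 4 E2F forms in the 250 bases before their start. Of the S phase sum, CDC6, EXO1 and BLM had none there either. The shares above also searched the 50 bases after the start. In that longer window 3 of the 4 genes of the S phase sum with an entry had a match.

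The same cut-offs were then applied to the HRASV12 induced library, which took no part in the rule's cut-offs. Past the S phase cut-off there were 68 of 666 induced cells, 15 of them also past the mitotic one, leaving 53 cells (7.96%, Clopper-Pearson interval 6.02 to 10.3%) where the control library had 22.0%. Against the other 613 induced cells, 1358 of 9125 measured genes (14.9%) were higher in these 53 cells and 913 (10.0%) lower. DNA replication genes had a median log2 ratio of 1.54 with 47 of 54 higher, and the other induced cells had less of the S phase sum to begin with, a median of 62.7 CPM against 189 CPM in the other control cells. Their mitotic sum had a median of 52.0 CPM against 276 CPM.

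Of 8552 genes measured in both libraries, 252 were higher in control S phase cells, 1283 in the induced ones and 228 in both, which is 90.5% of the control list and 17.8% of the induced list. For lower genes the numbers were 91, 659 and 45, or 49.5% and 6.83% of the lists. Over all 9125 genes measured in the induced comparison, 14.9% were higher and 10.0% lower. The same 2 sums chose the cells in both libraries, so genes that vary with them had to be shared, and the overlap is a description. In the induced library, HIST1H1B had a log2 ratio of 3.18 (1.38 in control), CCNE2 of 2.82 (1.82) and CCNE1 of 1.58 (1.64). KDM5B was lower by nearly the same amount in both, at -1.35 and -1.37. Mesenchymal genes had a median of -1.84 with 11 of 12 measured lower and VIM at -1.65, where the control library had -0.45 and -1.13. The G2 and M phase list had a median of 0.71 among induced cells and -0.30 among control cells. None of these differences between libraries was tested.

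**Figure D5:**
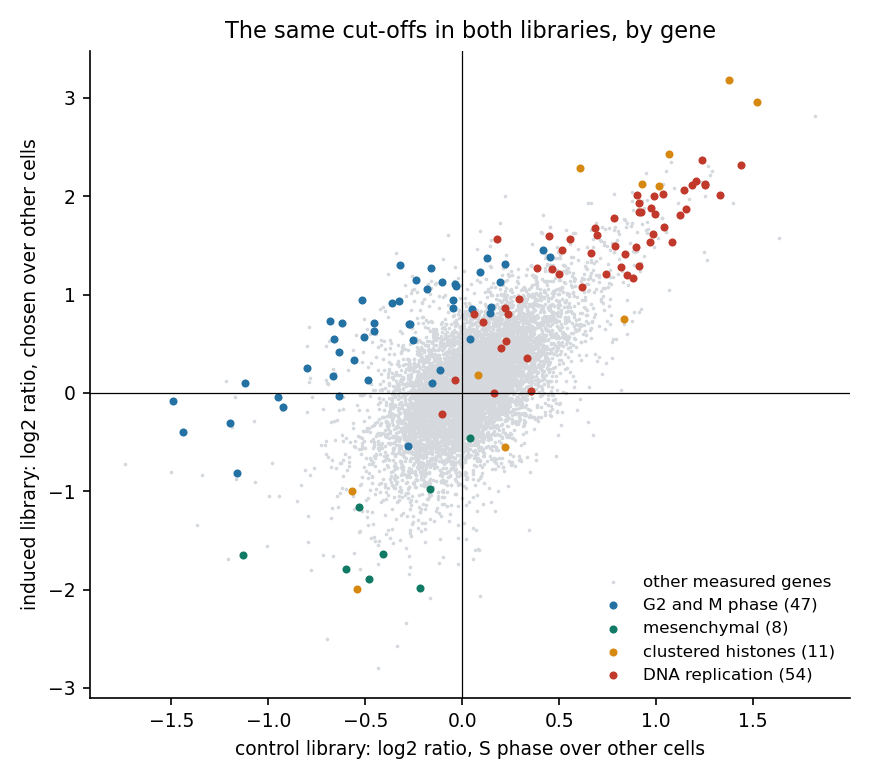
Each point is a measured gene outside the rule, at its log2 ratio in the control library (horizontal, S phase over other control cells) and in the induced library (vertical, cells chosen by the same cut-offs over other induced cells). DNA replication genes (red) lie high on both axes, with medians of 0.84 and 1.54 in the 2 libraries, and G2 and M phase genes (blue) lie on both sides of zero in control (median -0.30) and mostly above it in induced cells (median 0.71).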

How the data were processed

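The uninduced and the induced culture gave 1 droplet library each, made with a 10x Genomics Chromium 3' kit per the labels. Kallisto and bustools are named in the submitters' processing notes. Their versions, the build and the annotation were not given in the sources used here. What the authors deposited is a table of counts, the molecules of 36027 genes in each of 1622 cells. The deposited annotation gives each cell's type, its singlet mark and the percent of mitochondrial counts as the authors computed it, at most 20.0. Cells of both files were matched by their order, checked by totals that differed by at most 192 counts. No doublet caller was run here, and none is described in the labels.

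Counts were summed over the cells of a group and scaled to CPM. No count test was run. Levels have exact Poisson, ratios exact conditional, shares Clopper-Pearson and list medians order-statistic intervals, all at 95%. The intervals of levels and ratios do not cover PCR or sampling of cells. Those of shares treat cells as independent draws from 1 library, and those of list medians reflect the genes of the list. Phases were scored with scanpy 1.11.5; edgeR 4.0.16 and DESeq2 1.42.0 gave scaling factors only. The calculation was tested on simulated data. The members, the 31 gene lists and the tests were chosen with earlier results of these data known. The rule for named genes took the genes of the S phase sum, the markers, the 12 highest and 12 lowest genes with at least 25 CPM, the 3 highest and 2 lowest of each list, and a fixed set with MYCN, HRAS, TOP2A, MKI67, CCNE1, CCNE2, E2F1, CCND1, RRM2 and the MCM genes. Other genes were named after their values were seen, and some genes that the rule names are left out. Alternatives were other scalings, per-cell means, thinning, other cut-offs, each gene of the sum left out, other reference cells, filters and pseudocounts. Leaving out each gene's highest cell, cells low in mitochondrial percent or MALAT1, and cells with CARTPT were chosen after seeing the data.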

Additional observations from a re-analysis of the deposited data

Results flagged for a closer look

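Of the genes measured in both libraries, 3 were at least 1.5-fold lower in the S phase cells of the control library and at least 1.5-fold higher in the induced cells chosen by the same cut-offs, each against the other cells of its library, and they were named for this after their values were seen. CDH11, a cadherin, had log2 ratios of -0.79 in control (10.7 against 19.2 CPM) and 0.67 in induced cells (16.2 against 9.80 CPM). TPX2, a spindle assembly factor, had -0.62 in control (133 against 205 CPM) and 0.71 in induced cells (158 against 96.1 CPM). GTSE1, a regulator of G2 and mitosis, had -0.68 in control (80.0 against 129 CPM) and 0.74 in induced cells (103 against 61.2 CPM). The difference between the libraries was not tested. Beside it, the median mitotic sum of the cells compared with was 276 CPM in control and 52.0 CPM in induced cells, and its part in these differences was not tested.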

How the results depend on the processing

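The S phase cells numbered 89 with the top 10% of the sum in place of the top 25%. Genes higher in them, 269 of 8807 otherwise, numbered 431 of 8914 with the top 10% and 503 of 8810 against cells past neither cut-off. With a floor of 50 CPM they numbered 94 of 3165, and with no filter beyond 1 count 465 of 35504. Lower genes, 97 of 8807 otherwise, numbered 150 of 8808 with TMM and 164 of 8914 with the top 10%. With totals that leave out ribosomal protein and mitochondrial genes they numbered 157 of 9914. They were 31 of 3165 with the 50 CPM floor, 236 of 35504 with no filter and 63 of 8807 with a pseudocount of 5 CPM. The G2 and M phase median was -0.15 with the top 10%, -0.056 without the mitotic exclusion and 0.42 against cells past neither cut-off, where it changed sign. Against those cells the medians of replication and nucleotide supply genes were 1.04 and 0.72. The same change of reference turned ASPM (0.66), CDC20 (0.16), CENPE (0.19), DEPDC1 (0.093), KIF14 (0.092), NEK2 (0.035) and TTK (0.60) above 0. Of these, ASPM, CENPE, KIF14, NEK2 and TTK belong to the mitotic sum that helped to choose the cells. CRH was at 0.077 with the top 10% and CARTPT at -2.70 without its highest cell, but at 0.30 with cells at 100 CPM or more of it left out of both groups. Of 154 named genes 69 passed 1.5-fold, and 22 of these were under it in at least 1 of 20 alternatives. The named genes include the 6 genes of the S phase sum and genes of the mitotic sum, whose ratios the choice of cells fixed. Others were named for being the highest or lowest of all genes or of a list. The 69 are thus no measure of all 8807 measured genes, of which 3.05% were higher and 1.10% lower. Changes of sign were counted for these 69 genes only, and 9 of their gene and alternative pairs changed sign. Sign changes of the other named genes were not counted. Apart from what a setting's own construction shows, the cause was not tested. No paired analysis was possible because each group has 1 library and no test was run. Depth limits low genes: 3 counts in the members' pool are 0.164 CPM, and most clustered histones stayed under 10 CPM.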

Other observations

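The median log2 ratios of ribosome biogenesis and ribosomal protein genes lay on opposite sides of the median of all measured genes, 0.04. Of 18 measured MYC target and nucleolar genes 3 were at least 1.5-fold higher, RRP9 (46.2 against 27.2 CPM), NOLC1 (165 against 99.8 CPM) and MYBBP1A (22.4 against 13.4 CPM), and 0 lower, and the list median was 0.40. All 18 log2 ratios lay between 0.18 and 0.74. Of 83 ribosomal protein genes 0 passed 1.5-fold, where 3.05% of all measured genes were higher and 1.10% lower. Their median was -0.20 and the lowest was RPL23 at -0.47. Their summed level was 144727 CPM in members, 147774 CPM in mitotic cells and 180469 CPM in cells past neither cut-off, so these genes take a smaller share of the counts in the members and in mitotic cells than in cells past neither cut-off. Ratios of CPM move with that share, and near-identical copies make single ribosomal protein levels uncertain.

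Few genes of the stress and signalling lists passed 1.5-fold. Of all 8807 measured genes 3.05% were higher and 1.10% lower, so counts of 0 or 1 in such short lists say little about them. Of 9 heat shock and chaperone genes 0 passed 1.5-fold (median 0.20), with the mitochondrial chaperone HSPD1 at 1537 against 1151 CPM. Of 10 immediate-early genes only FOSB was higher, at 40.3 against 26.2 CPM, and its log2 ratio of 0.60 was 0.56 without its highest member cell. Of 9 measured genes downstream of ERK 1 was lower, PHLDA1 at 36.5 against 55.6 CPM, with 9.43% of its counts in members from 1 cell, and SPRY2, a feedback inhibitor, was at -0.50. Genes of the mitochondrial genome had a median of 0.06 over 27 measured.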
